A study of Arabidopsis thaliana with 6 samples.

Results

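The circadian clock of Arabidopsis thaliana was followed through 8 of its core genes, each with 1 probe set on the ATH1 array, among 22746 probe sets that are no controls. They were chosen by gene, without use of their signals: CCA1 (AT2G46830, probe set 266719_at), LHY (AT1G01060), PRR7 (AT5G02810, probe set 250971_at), PRR5 (AT5G24470, probe set 249741_at), TOC1 (AT5G61380), ELF4 (AT2G40080, probe set 267364_at), GI (AT1G22770, probe set 264211_at) and TIC (AT3G22380, probe set 258444_at). Earlier results of these data were known when that choice was made. The platform annotation used here pairs GI and TIC with their probe sets. The other 6 pairings come from the selection rule alone and were not checked against that annotation, which leaves these probe sets unnamed. Whole wild-type seedlings of the reference accession Col-0 were compared with atsf1-2, a mutant of the splicing protein AtSF1 that is also of the Col-0 ecotype and whose lesion the labels do not describe. For either genotype there were 3 biological replicates of 1 array each, taken from untreated seedlings kept for 9 days on MS agar at 23 C in cycles of 16 h light and 8 h dark. The labels give no hour of harvest.

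The plant clock is a loop of repressors expressed in turn through the day. CCA1 and LHY, related MYB transcription factors, peak around dawn and repress evening genes, the pseudo-response regulators PRR7, PRR5 and TOC1 follow from morning to dusk and repress CCA1 and LHY, and GI and ELF4 act from late day into the night. Because these transcripts cycle, a single harvest shows their levels at 1 phase only, and a shift in the hour of harvest can move dawn and evening genes in opposite directions. Splicing factors are known to matter for the clock in Arabidopsis, where several clock transcripts are alternatively spliced. With a single probe set for each gene, a change of isoform cannot be told apart from a change of transcript level.

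Arrays had median signals of 165 to 195, and signals of different probe sets cannot be set against each other as transcript amounts. Root markers (EXPA7, EXPA18 and PYK10) and the green tissue genes RCA and LHCB4.3 had signals of 190 to 26679 in both genotypes. None of the 3 root markers was called. Of 5 listed green tissue genes, only these 2 had a probe set that the annotation pairs with that gene alone. Of the 2, LHCB4.3 was higher in atsf1-2 (0.56 on the log2 scale, adjusted p = 0.0487 by limma, and 0.0673 with no filter). Over all tested probe sets, 8.19% were called in either direction and 3% were called higher. Another LHCB gene was listed among dawn and morning genes, so the green tissue genes are no check apart from the clock. The part of tissue makeup in the clock values was not tested, nor was that of harvest hour in the green tissue signals. In bulk seedlings, fewer cells of a type and less RNA per cell cannot be told apart. The second Col-0 replicate and the third atsf1-2 replicate stood apart from the rest. Their ratios of 3' to 5' actin control signal were 2.14 and 2.47, against 3.36 to 3.63 on the other arrays. By actin, they thus had the least bias to the 3' end. The same ratio for GAPDH was 0.896 and 1.09 on them against 1.04 to 1.15, so it did not set the atsf1-2 array apart. Nothing in the labels says whether a genotype's samples came from separate cultures or days beyond calling them biological replicates, so the p-values measure the spread between these samples, which may be technical. AtSF1 itself is not analysed here, so it gave no check of the genotypes.

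Of the 8 clock genes, LHY was lower in atsf1-2, by a call that 9 of 16 alternative settings ended, and the other 7 did not pass the test. The test was limma on log2 signals, with p-values adjusted over all 13648 probe sets at or above the 40th percentile of mean log2 signal and a threshold of 0.05. CCA1, LHY, PRR7, TOC1, GI and TIC were bright enough for it, while PRR5 and ELF4 were below the filter and are given from the same fit without a filter. Among the 6 tested genes 1 was called lower and 0 higher (2 had an unadjusted limma p under 0.05), beside 8.19% of all tested probe sets called in either direction, 5.19% called lower and 3% called higher. PRR5 and ELF4 were not called either, beside 3.1% of all probe sets in the fit with no filter. The median log2 fold change, atsf1-2 minus Col-0, was -0.32 for the 6 tested genes and -0.070 for all tested probe sets. The log2 fold changes were below 0 for CCA1, LHY, TOC1 and TIC and above 0 for PRR7, PRR5, ELF4 and GI, so the signs were mixed.

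**Figure D1:**
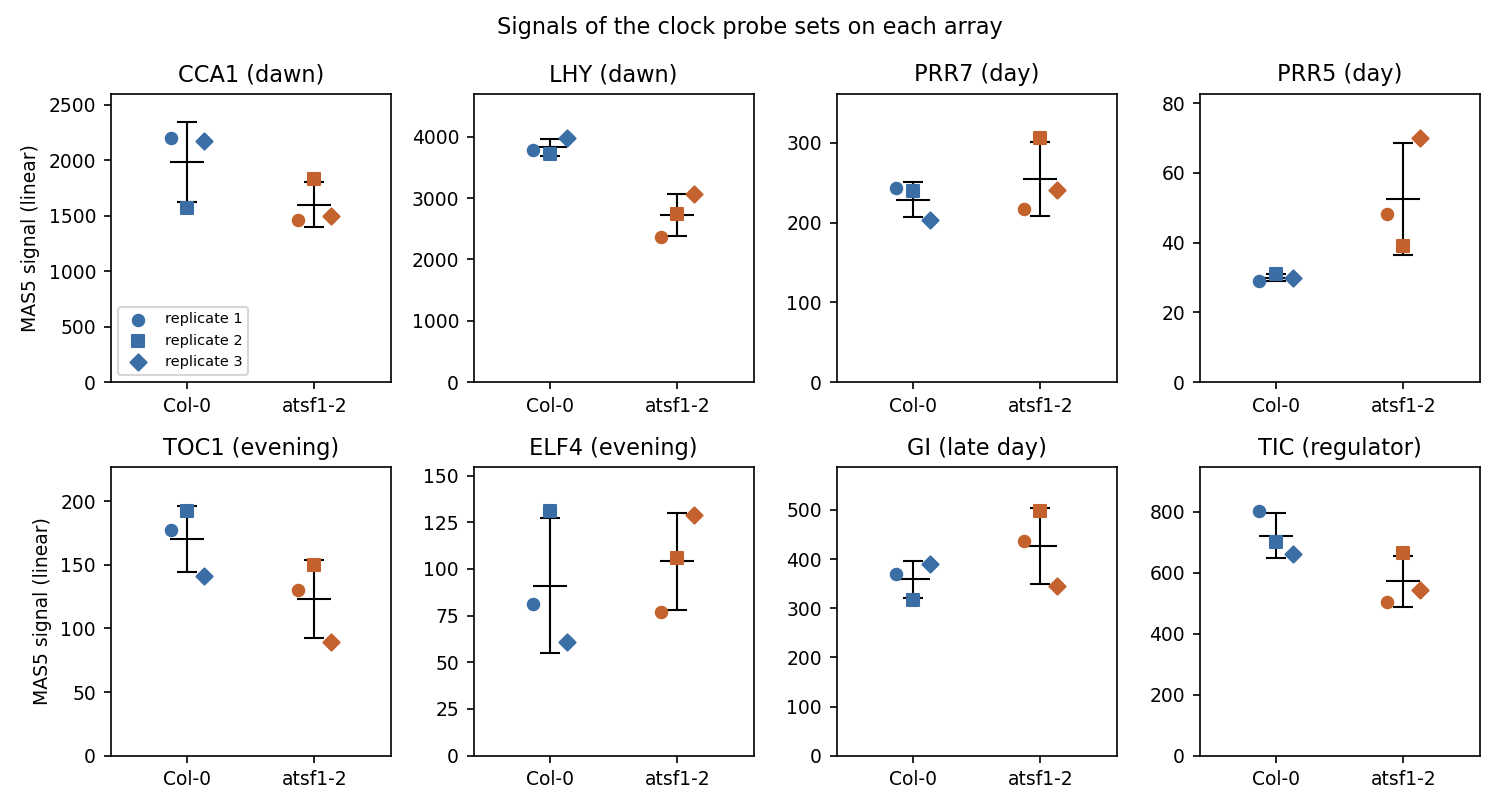
MAS5 signal (linear axis from 0) of each clock probe set on each of the 6 arrays, Col-0 in blue and atsf1-2 in orange, with a marker shape for each replicate number, and the mean and SD (n = 3) as black bars. The genotypes are separate for LHY (3718 to 3985 against 2373 to 3064) and for the dim PRR5, and overlap for the other genes.

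LHY, the dawn MYB factor, had signals of 3783, 3718 and 3985 on the Col-0 arrays and of 2373, 2744 and 3064 on the atsf1-2 arrays. Every atsf1-2 array lay below every Col-0 array. The mean signal fell from 3829 ± 139 (SD, n = 3) to 2727 ± 346 (SD, n = 3), and the log2 fold change was -0.50 ± 0.13 (SE, 95% interval -0.77 to -0.22, adjusted p = 0.0362 by limma). This was 0.71 of the Col-0 level. LHY was the only one of the 6 tested genes whose genotypes did not overlap, beside 31.3% of all tested probe sets, or 19.2% in the same direction. Its signal stood between percentiles 93.5 and 96.7 of an array, so it was among the bright probe sets, and its residual SD of 0.14 on the log2 scale was below the median of 0.20 over all tested probe sets.

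The call for LHY rested on the setting. The adjusted p was 0.0563 with no filter, 0.137 with each array centred on its median, 0.0735 by eBayes without a trend and 0.0767 with the replicate number as a block. It was 0.125, 0.0829 and 0.136 without Col-0 replicate 1, 2 and 3, and 0.119 and 0.0593 without atsf1-2 replicate 1 and 2. It stayed past the threshold without atsf1-2 replicate 3 (log2 fold change -0.59, adjusted p = 0.0126) and without both arrays that stood apart (log2 fold change -0.61, adjusted p = 0.0221). LHY was lower in atsf1-2 in all 16 alternatives, with log2 fold changes from -0.61 to -0.36.

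CCA1, the partner of LHY at dawn, had signals of 2204, 1566 and 2175 in Col-0 and of 1461, 1831 and 1501 in atsf1-2. The genotypes overlapped because Col-0 replicate 2 was low, below atsf1-2 replicate 2. The mean was 1982 ± 360 in Col-0 and 1598 ± 203 in atsf1-2 (SD, n = 3 for each), and the log2 fold change of -0.30 ± 0.16 (SE, 95% interval -0.65 to 0.053) did not pass (adjusted p = 0.264 by limma). Array weights alone among the alternatives brought it past the threshold (log2 fold change -0.43, adjusted p = 0.0379). Without Col-0 replicate 2 and atsf1-2 replicate 3 together the log2 fold change was -0.42 (adjusted p = 0.0821), and without Col-0 replicate 2 it was -0.46 (adjusted p = 0.110).

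**Figure D2:**
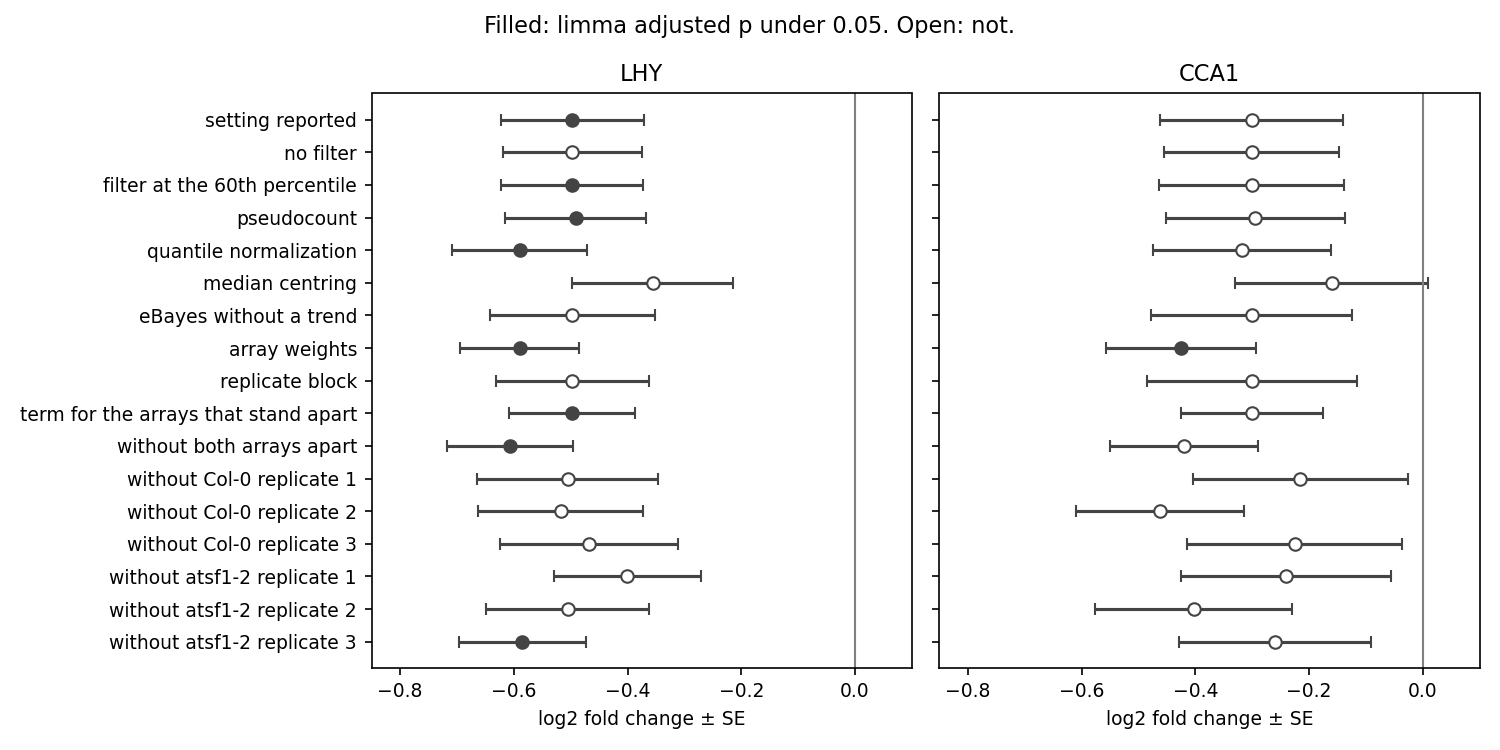
Log2 fold change, atsf1-2 minus Col-0, of LHY and CCA1 under the setting reported and 16 alternatives, with bars for the SE, filled where the limma adjusted p was under 0.05 and open where it was not. All points lie below 0, from -0.61 to -0.36 for LHY under the alternatives and from -0.46 to -0.16 for CCA1, and the filled points are 8 for LHY and 1 for CCA1.

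PRR7, a pseudo-response regulator that represses CCA1 and LHY through the day, had signals of 243, 240 and 204 in Col-0 and of 217, 307 and 241 in atsf1-2. Its ranges overlapped, and atsf1-2 replicate 2 was the high array. The log2 fold change was 0.14 ± 0.18 (SE, 95% interval -0.26 to 0.54, adjusted p = 0.655 by limma). The interval holds a fall to 0.84 and a rise to 1.46 times the Col-0 level, so the arrays settle neither. Without atsf1-2 replicate 2 the log2 fold change was 0.0033.

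PRR5, a later member of the same family, was dim, with signals of 29.0, 30.9 and 29.99 in Col-0 and of 48.2, 39.0 and 70.1 in atsf1-2. All atsf1-2 arrays were above all Col-0 arrays, as for 9.47% of probe sets with no filter. The Col-0 values lay close together and those of atsf1-2 were spread, with SDs of 0.966 and 16.0 (n = 3 for each). The log2 fold change of 0.76 ± 0.44 (SE, 95% interval -0.20 to 1.73) did not pass (limma without filter, adjusted p = 0.410), and adding a pseudocount brought it to 0.40. The probe set stood between percentiles 17.9 and 32.3 of an array, and without detection calls it is not known whether it was above background.

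GI, a large protein that links the clock to photoperiodic flowering and peaks in late day, had signals of 369, 317 and 390 in Col-0 and of 437, 498 and 346 in atsf1-2. The genotypes overlapped, since atsf1-2 replicate 3 lay below Col-0 replicates 1 and 3. The log2 fold change was 0.24 ± 0.17 (SE, 95% interval -0.14 to 0.62, adjusted p = 0.413 by limma). Without both arrays that stood apart it was 0.30 ± 0.14 (SE, adjusted p = 0.211).

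TOC1, the evening pseudo-response regulator that closes the loop onto CCA1 and LHY, had signals of 177, 192 and 141 in Col-0 and of 130, 150 and 89.4 in atsf1-2. The arrays overlapped, atsf1-2 replicate 2 lying above Col-0 replicate 3. The log2 fold change of -0.49 ± 0.24 (SE, 95% interval -1.01 to 0.032) was about the size of that of LHY, but it did not pass (adjusted p = 0.220 by limma), with a residual SD of 0.32 against 0.14 for LHY. Without Col-0 replicate 2 and atsf1-2 replicate 3, its highest and lowest arrays, it was -0.18 ± 0.20 (SE, adjusted p = 0.587).

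ELF4, a subunit of the evening complex that represses PRR genes at night, had signals of 81.1, 131 and 60.9 in Col-0 and of 77.2, 106 and 129 in atsf1-2. The ranges overlapped, with the highest arrays of both genotypes close together. The log2 fold change was 0.23 ± 0.35 (SE, 95% interval -0.55 to 1.02, limma without filter, adjusted p = 0.799), and it turned to -0.019 without Col-0 replicate 3. Its residual SD of 0.48 on the log2 scale was higher than that of 96.7% of tested probe sets. Those all passed the filter that ELF4 did not, so its spread was not set against probe sets as dim.

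TIC, a nuclear regulator that sustains the amplitude of the clock and whose transcript is not known for strong cycling, had signals of 802, 700 and 660 in Col-0 and of 505, 665 and 543 in atsf1-2. The genotypes overlapped only through atsf1-2 replicate 2, which lay just above Col-0 replicate 3. The mean went from 721 ± 72.7 to 571 ± 83.5 (SD, n = 3 for each), and the log2 fold change of -0.34 ± 0.15 (SE) had an unadjusted p of 0.0478 and did not pass after adjustment (adjusted p = 0.188 by limma). An unadjusted limma p under 0.05 was found for 26% of all tested probe sets.

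**Figure D3:**
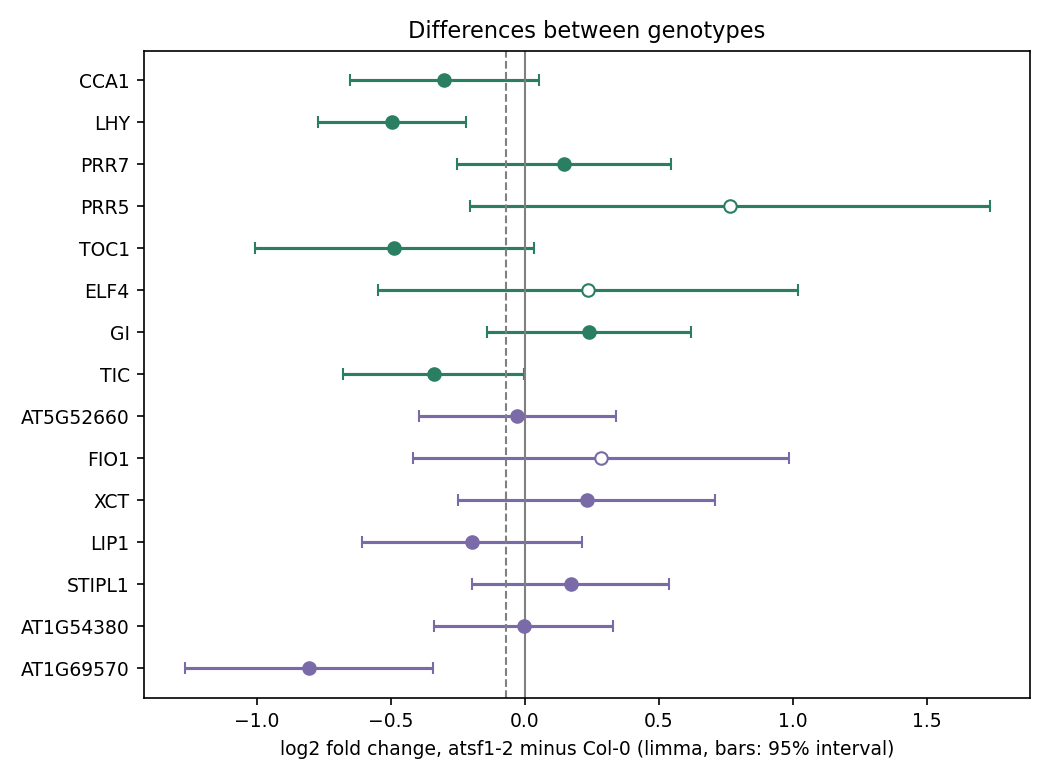
Log2 fold change, atsf1-2 minus Col-0, with 95% intervals from limma, for the 8 clock core genes (green) and 7 listed clock-associated genes (purple), open symbols marking probe sets below the filter; the dashed line is the median of all tested probe sets, -0.070. LHY and AT1G69570 are the genes that passed; the intervals of the other genes reach 0 or nearly so.

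Centring each array on its median shifted the median log2 fold change of all tested probe sets by 0.14, from -0.070 to 0.071. Relative to the median of all tested probe sets before centring, the log2 fold changes were -0.43 for LHY, -0.42 for TOC1, -0.27 for TIC and -0.23 for CCA1, and 0.21 for PRR7 and 0.31 for GI. None of these 6 changed sign under quantile normalization or median centring. Quantile normalization moved the genes unequally, LHY to -0.59 and CCA1 to -0.32, but PRR7 to 0.29, GI to 0.37 and TOC1 to -0.40. After median centring GI stood at 0.38 (adjusted p = 0.192 by limma) and LHY at -0.36.

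Differences between clock genes within an array are not touched by a constant shift of that array, such as median centring, and all 15 pairs of the 6 tested genes were compared in this way, as a description with no test. The log2 difference LHY minus GI, a dawn gene against a late-day gene, was 3.36, 3.55 and 3.35 in Col-0 and 2.44, 2.46 and 3.15 in atsf1-2. It was lower on every atsf1-2 array, by 0.74 on average, and atsf1-2 replicate 3, one of the arrays that stood apart, came closest to Col-0. CCA1 minus GI was 2.58, 2.31 and 2.48 in Col-0 and 1.74, 1.88 and 2.12 in atsf1-2, and here too the genotypes did not overlap. LHY minus PRR7 was also lower on every atsf1-2 array, by 0.64 on average, whereas CCA1 minus PRR7 overlapped. With quantile normalization, which does change such differences, the mean differences were -0.96 for LHY minus GI, -0.69 for CCA1 minus GI and -0.88 for LHY minus PRR7.

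TOC1 minus GI was -1.06, -0.72 and -1.47 in Col-0 and -1.75, -1.73 and -1.95 in atsf1-2. The evening gene was lower against the late-day gene on every atsf1-2 array, by 0.73 on average. Without both arrays that stood apart, that average was 0.48. LHY minus TOC1 was 4.41, 4.27 and 4.82 in Col-0 and 4.19, 4.19 and 5.10 in atsf1-2. The genotypes overlapped, with a mean difference of -0.0082 that rested on the high value of atsf1-2 replicate 3: without that array it was -0.31, and without both arrays that stood apart -0.43. In all, 7 of 15 pairs, 46.7%, did not overlap between genotypes, beside 31.3% of all pairs of tested probe sets. The 7 pairs share genes, and each sets GI or PRR7 against one of LHY, CCA1, TOC1 and TIC.

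**Figure D4:**
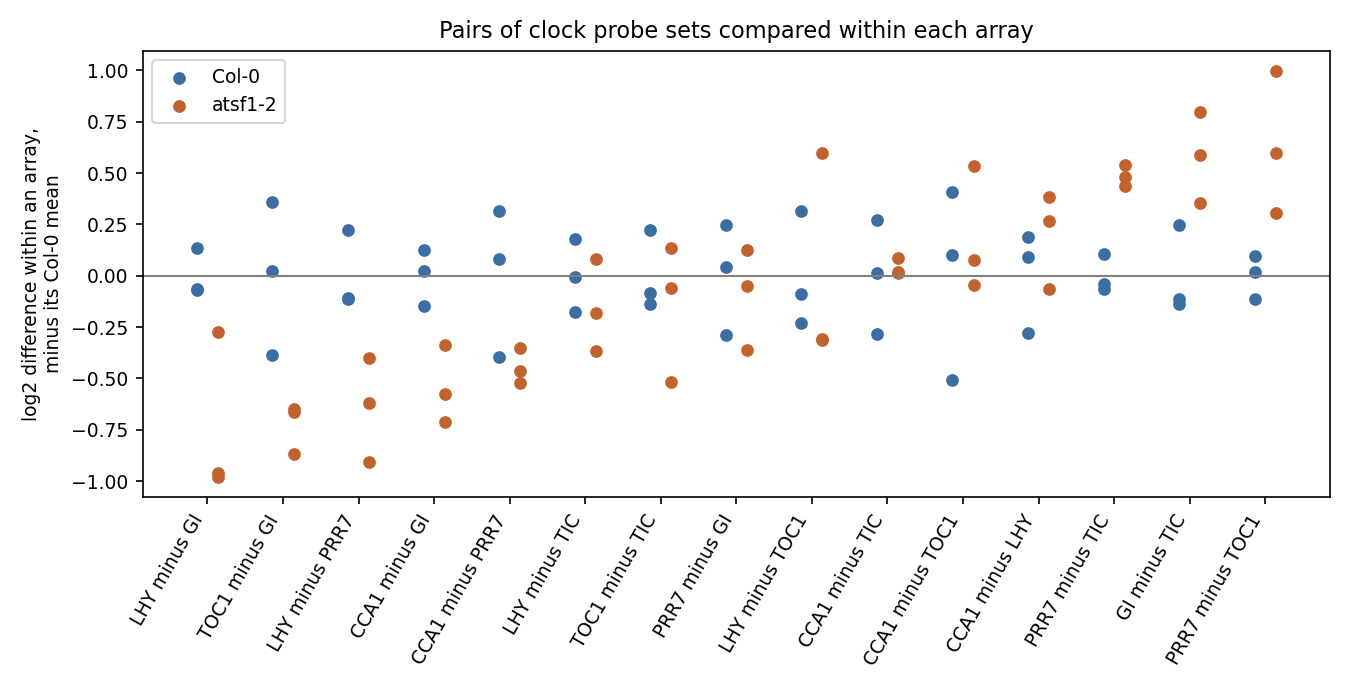
Log2 difference between 2 clock probe sets on the same array, less the Col-0 mean of that pair, for the 15 pairs of tested genes, with 1 point for each array (Col-0 blue, atsf1-2 orange). The atsf1-2 points are separate from Col-0 in 7 pairs, among them LHY minus GI, CCA1 minus GI and TOC1 minus GI, and overlap in pairs among LHY, CCA1, TOC1 and TIC.

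By time of day, the log2 fold changes of the dawn genes were below 0, that of LHY past the test and that of CCA1 not. Those of the day and evening genes were above 0 for PRR7, PRR5, GI and ELF4 and below 0 for TOC1, and none of these 5 passed. Since the labels give no hour of harvest, its part in the fall of LHY cannot be told apart from that of genotype. It was not tested. Among replicates of one genotype, single clock genes also differed. Col-0 replicate 2 had the lowest CCA1 and GI and the highest TOC1 and ELF4 of the Col-0 arrays, with log2 deviations from the Col-0 mean of -0.32, -0.17, 0.19 and 0.60. LHY, the other dawn gene, deviated little on that array (-0.042). Among the atsf1-2 arrays, replicate 3 had the lowest TOC1 and GI and the highest LHY, PRR5 and ELF4, with deviations of -0.43, -0.29, 0.18, 0.46 and 0.34. CCA1 went the other way from LHY there (-0.083), and PRR5 and ELF4 were below the filter. Col-0 replicate 2 and atsf1-2 replicate 3 are the arrays with the low actin ratios, and the part of RNA quality in these deviations was not tested.

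Of 61 other genes of the clock and its light input and outputs, 7 had a probe set that the annotation pairs with that gene alone, 6 passed the filter, and 1 was called lower and 0 higher, beside 5.19% of all tested probe sets called lower and 8.19% called in either direction. No listed evening gene and no listed photoreceptor could be tested. AT1G69570, listed among photoperiod outputs, had signals of 287, 424 and 295 in Col-0 and of 158, 234 and 181 in atsf1-2. The genotypes did not overlap, as for 31.3% of all tested probe sets, or 19.2% in the same direction. AT1G69570 fell by 0.81 ± 0.21 on the log2 scale (SE, adjusted p = 0.0411 by limma). Its adjusted p was above the threshold with no filter (0.0744), with quantile normalization (0.0699), with median centring (0.0524), without any one of the Col-0 arrays (0.0856 to 0.120), without atsf1-2 replicate 1 (0.129) or 3 (0.0596), and without both arrays that stood apart (0.110).

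The other listed genes did not pass. XCT, a nuclear protein named for its effect on timekeeping, had a log2 change of 0.23 ± 0.22 (SE, adjusted p = 0.541 by limma), and LIP1, a small GTPase that affects the light input of the clock, had -0.20 ± 0.19 (SE, adjusted p = 0.538 by limma). STIPL1, a spliceosomal protein whose loss is known to lengthen the clock's period, had signals of 245, 223 and 241 in Col-0 and of 245, 312 and 244 in atsf1-2, with a log2 fold change of 0.17 ± 0.17 (SE, adjusted p = 0.557 by limma). AT5G52660, listed among dawn genes, had a log2 fold change of -0.028 ± 0.17 (SE), which was above 0 with quantile normalization (0.10) and with median centring (0.11). For AT1G54380 it was -0.0054 ± 0.15 (SE), likewise above 0 with both (0.15 and 0.14), and FIO1, below the filter, had 0.28 ± 0.32 (SE). The median log2 fold change of the 6 tested genes was -0.017, against -0.070 for all tested probe sets.

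The probe sets whose signal ran most like that of LHY over the 6 arrays, among 7246 others that name 1 gene and passed the filter, were those of AT4G14100, AT4G14920, AT3G26890, AT1G49010 and AT4G00170, with Pearson's r of log2 signals from 0.987 to 0.991. Of these, AT3G26890 was called lower in atsf1-2 (mean signal 820 in Col-0 and 527 in atsf1-2, adjusted p = 0.0264 by limma). So was AT1G49010 (696 and 445, adjusted p = 0.0360 by limma), beside 5.19% of all tested probe sets called lower. Probe sets picked for running like LHY, whose genotypes did not overlap, tend to differ in its direction by that choice. These calls are therefore no support for that of LHY. Those most like TOC1 were AT3G54190, AT1G13000, AT1G21660, AT3G62160 and AT3G24040, with r from 0.980 to 0.990, and none of these 5 passed the limma test (adjusted p from 0.173 to 0.308). Over 6 arrays from only 2 genotypes, the best of so many correlations are high in any case, and they are given as a description.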

How the data were processed

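The authors deposited a linear MAS5 intensity for each probe set on each array, computed in Expression Console 1.2 of Affymetrix according to the submitters' processing notes. Trimmed means without the outer 2% of signals were 500.04 to 500.05 on all arrays. For background settings, the sources used here give nothing, and detection calls were not used. Of 22810 probe sets, 64 controls were left out. Intensities were taken to log2, filtered at the 40th percentile of the mean (lowest geometric mean kept 104.44), and fitted with limma 3.58.1 under R 4.3.3 (lmFit, eBayes with a trend, two-sided, Benjamini-Hochberg). The fit was tested on simulated data with the same spread for every probe set, unlike these data, so that test does not bear on the calls made here. The number of arrays, 3 per genotype, limits precision.

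The clock genes were chosen by gene, without use of their signals. That choice, the lists and the tests were made with earlier results of these data known. Named genes are the 8 clock genes, up to 4 called genes or the 2 with the smallest p in each list, and the 5 probe sets most like LHY and TOC1. STIPL1, AT1G54380 and FIO1 were added to complete a list. Gene names come from the platform annotation and the RefSeq table of assembly TAIR10.1. Alternatives were other filters, a pseudocount of 38.3, other scalings, array weights, eBayes without a trend, the replicate block, a term for 2 arrays that stood apart, and leaving out arrays. For pairs of clock genes, alternatives were added after seeing the data. No sequence is printed, since none was used here.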

Additional observations from a re-analysis of the deposited data

How the results depend on the processing

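No clock gene was called higher under the setting reported or any of 16 alternatives. The count called lower, 1 (LHY), went to 0 with median centring, with no filter, with the replicate block and by eBayes without a trend, and to 2 (LHY and CCA1) with array weights. Leaving out single arrays gave 0 to 1. The direction of CCA1, LHY, PRR7, PRR5, TOC1, GI and TIC held in every alternative that gave a value. PRR7, however, came to 0.0033 without atsf1-2 replicate 2 (range without single arrays 0.0033 to 0.25). The direction of ELF4 turned without Col-0 replicate 3 (range without single arrays -0.019 to 0.53).

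Of the listed genes, AT5G52660 turned with quantile normalization (0.10), median centring (0.11), array weights (0.031), without both arrays that stood apart (0.11) and without Col-0 replicate 2 or atsf1-2 replicate 3 (range without single arrays -0.15 to 0.076). AT1G54380 turned with quantile normalization (0.15), median centring (0.14) and without Col-0 replicate 1, Col-0 replicate 2 or atsf1-2 replicate 1 (range -0.033 to 0.013). XCT turned without both arrays that stood apart (-0.086). None of the 3 was called, and the cause was not tested.

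Over all tested probe sets, 409 were higher and 709 lower. Counts were 755 and 362 with median centring, 267 and 439 with no filter, 271 and 587 by eBayes without a trend, 947 and 1713 with array weights, 892 and 1511 when the arrays that stood apart had a term of their own, and 171 and 263 with the replicate block. Quantile normalization gave 449 and 474. Leaving out single arrays gave 130 to 463 higher and 151 to 777 lower. The labels do not say that replicate numbers pair samples, so the numbers were not taken to do so. Same-numbered arrays deviated together with r of 0.10, -0.19 and -0.21. The highest r, 0.32, was between the 2 arrays that stood apart, which differ in number, so these values cannot decide on pairing. PRR7 and TOC1 were below the 60th percentile filter, and PRR5 and ELF4 were run under the alternatives with no filter.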
